A study of Rattus norvegicus with 4 samples.

Results

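Nitric oxide and cGMP signalling was described through 10 genes, out of 4737 genes named on the array, in the testis of male Sprague Dawley rats. Sprague Dawley is an outbred laboratory strain. Rats received an antibody raised in sheep against rat FSH, the pituitary follicle-stimulating hormone, or a control IgG (a sheep immunoglobulin), each for 4 days, and 2 Affymetrix arrays (rat U34, set A) were run for each treatment. The series design gives postnatal day 14, all source names give day 18, the treatment protocol gives day 18 for the injections and day 22 for collection, and 1 array of the antibody group (replicate 2) is titled by postnatal day 4 alone, so the age is not settled by the labels and the group of that array rests on its source name. The protocol describes each RNA sample as a pool of about 20 organs, called ovaries there, whereas each source name gives the testis of 1 rat. The number of animals behind each RNA sample is therefore not known. The p-values, intervals and SE of log2 changes rest only in part on the spread between the RNA samples. The moderated fit also draws the variance of each probe set towards that of the other tested probe sets.

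The genes were the soluble guanylate cyclase subunits Gucy1b1 and Gucy1a1, the nitric oxide synthases Nos1, Nos2 and Nos3, the natriuretic peptide receptors Npr1, Npr2 and Npr3, the cGMP-dependent kinase Prkg2 and the phosphodiesterase Pde5a. They were chosen by name, with the lower Gucy1b1 signal of this comparison already known, so differences between the treatments are given for them as a description. All 10 were found, on 24 probe sets that the platform annotation pairs with a single symbol. Of these, 11 probe sets of 6 genes were bright enough to enter the fit over the whole array, and 13 probe sets were not, which left Nos1, Npr3, Prkg2 and Pde5a without a tested probe set.

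Nitric oxide is made from arginine by the nitric oxide synthases and binds the soluble guanylate cyclase, a dimer of an alpha and a beta subunit, which then makes cGMP. Natriuretic peptides raise cGMP by a separate route, through receptors that are themselves guanylate cyclases. cGMP acts through kinases and ion channels and is broken down by phosphodiesterases. In the testis these components are known from vessels, peritubular cells and Leydig cells, while FSH acts on the Sertoli cells through cAMP.

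The 2 subunits of the soluble cyclase are set side by side because they gave unequal signals below. On the RefSeq assembly GRCr8 their genes lie on the same chromosome with 1 annotated gene between them. The 250 bases before the annotated start of each are shown, from RefSeq. Capitals mark matches, on either strand, to the GC box GGGCGG and to the CCAAT box, which reads ATTGG on the printed strand.
Gucy1b1, GRCr8 chr2:169696988-169697237, minus strand: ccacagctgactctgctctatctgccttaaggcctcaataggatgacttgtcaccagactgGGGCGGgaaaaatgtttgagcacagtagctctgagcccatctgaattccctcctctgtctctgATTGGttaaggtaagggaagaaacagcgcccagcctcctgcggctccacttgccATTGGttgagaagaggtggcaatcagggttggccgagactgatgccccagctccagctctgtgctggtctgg
Gucy1a1, GRCr8 chr2:169779624-169779873, minus strand: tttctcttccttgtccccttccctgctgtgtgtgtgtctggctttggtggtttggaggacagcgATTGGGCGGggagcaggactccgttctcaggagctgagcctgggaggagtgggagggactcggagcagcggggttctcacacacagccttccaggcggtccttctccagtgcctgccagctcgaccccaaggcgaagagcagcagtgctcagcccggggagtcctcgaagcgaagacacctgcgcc
The Gucy1b1 window held 1 GC box and 2 CCAAT boxes. The Gucy1a1 window held 1 of each, and there the 2 matches share bases, so that they form a single capital run. Over all 33469 RefSeq windows of this length, 30.5% held a GC box and 34.02% a CCAAT box. Neither window held the core of the cAMP response element, TGACG on either strand, which 18.2% of all windows held, nor the full element TGACGTCA, found in 1.59%. Promoter entries were matched for 7 of the 10 genes, and of these the Nos1 window alone held the full element.

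The tested probe sets numbered 5252, and the arrays' median intensities lay between 36.5 and 40.4. Transcripts known from the testis were measured on all arrays, but whether they tell testis from ovary, the organ named in the protocol, was not tested. Inha, an inhibin subunit made by Sertoli cells, read 804.3 and 682 on the antibody arrays and 1588.4 and 1224.2 on the control arrays. Sycp3, a protein of meiotic chromosomes, read 795 and 574.2 on the antibody arrays and 750.6 and 922.3 on the control arrays. Sertoli cell markers did not share a direction, with 5 of 8 measured genes higher and 3 lower by mean log2 value: Amh, the anti-Müllerian hormone, read 753.6 and 758.1 on the antibody arrays and 544.4 and 498.4 on the control arrays, and Testin, a secreted protein, was called higher. The germ cell lactate dehydrogenase Ldhc read 143.6 and 41.3 on the antibody arrays, against 41.6 and 333.6 on the control arrays, so arrays of the same treatment differed widely in this gene. In whole testis, fewer cells of a type and less RNA per cell cannot be told apart.

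Gucy1b1, which encodes the beta subunit that carries the heme group where nitric oxide binds, gave the widest separation between treatments among the tested probe sets of these genes. Its single probe set, rc_AI233225_at, had intensities of 61.2 and 64 on the antibody arrays, against 231.5 and 151.8 on the control arrays. Both antibody arrays lay well below both control arrays, and the lower control array was 2.37 times the higher antibody array. The antibody arrays differed from each other by a factor of 1.05 and the control arrays by a factor of 1.52, so the position of the control mean is the less certain. Mean intensity was 62.6 ± 1.98 in the antibody group and 192 ± 56.4 in the control group (SD, n = 2 each). The log2 change was -1.37 ± 0.21 (antibody minus control, ± SE, on the log2 of intensity plus 16, with a 95% interval from -1.85 to -0.90). Added to each value, the constant of 16 makes the change of dim probe sets look smaller.

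**Figure D1:**
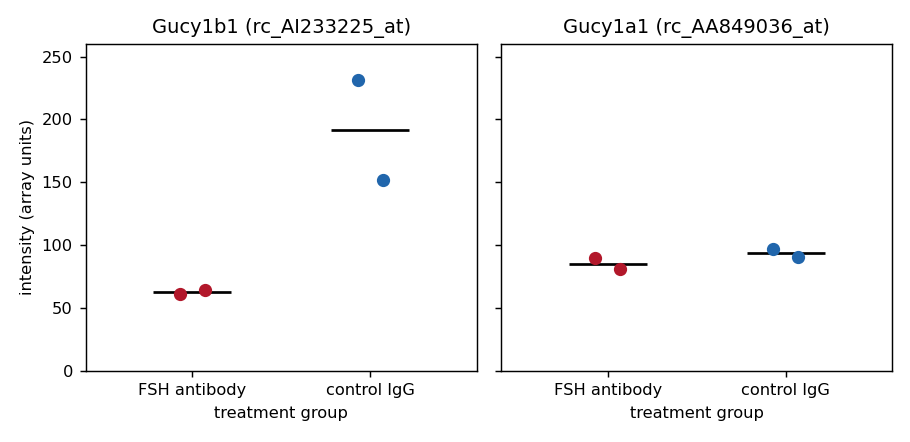
Intensity of the soluble guanylate cyclase subunits Gucy1b1 and Gucy1a1 on each array (points, array units on a linear axis) with the mean of each treatment as a bar. The Gucy1b1 points of the antibody group sit at 61.2 and 64 and those of the control group at 231.5 and 151.8, while all 4 Gucy1a1 points lie between 80.8 and 96.9.

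The Gucy1b1 probe set was 1 of the 8 called lower among 5252 by limma at an adjusted p under 0.05, a share of 0.152%. Its own adjusted p by limma was 0.0418, close to that threshold. Probe sets called higher were 6, a share of 0.114%, and both directions together gave 14, a share of 0.267%. Exactly 8 tested probe sets, Gucy1b1 included, had a log2 change at least as low. Since this comparison was known when the genes were chosen, the call is given as a description. The call ended without control IgG replicate 1, where the log2 change was -1.09, and without control IgG replicate 2, where it was -1.66. It ended also with quantile normalization, median centring, no intensity trend and no filter on dim probe sets. It held in 6 of 12 alternatives, and the log2 change ranged from -1.66 to -0.996 over them.

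**Figure D2:**
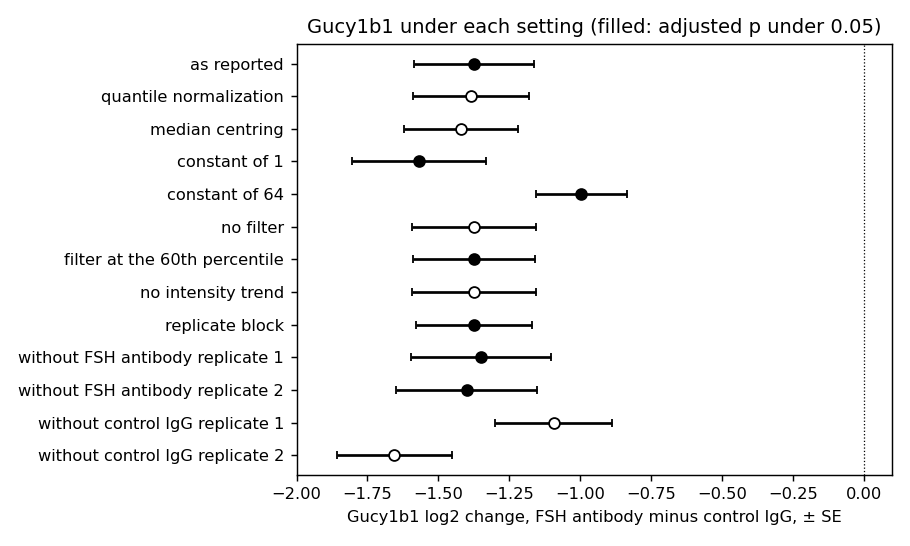
Log2 change of Gucy1b1 (x axis, antibody minus control, ± SE) as reported and under each of 12 alternatives (rows), with filled points where the adjusted p by limma was under 0.05. All points lie between -1.66 and -0.996, and 6 of the 12 alternatives have filled points.

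Gucy1a1, the alpha subunit that pairs with the product of Gucy1b1, differed little between treatments. Its probe set rc_AA849036_at had intensities of 89.7 and 80.8 on the antibody arrays, against 96.9 and 90.9 on the control arrays. The groups did not overlap, but the higher antibody array and the lower control array were only a factor of 1.01 apart. The log2 change was -0.12 ± 0.17 and its 95% interval, from -0.51 to 0.27, held 0. Within each array the log2 signal of Gucy1b1 minus that of Gucy1a1 was -0.45 and -0.28 on the antibody arrays and 1.13 and 0.65 on the control arrays. The difference between treatments in this quantity was -1.26, with means of -0.36 ± 0.13 for the antibody and 0.89 ± 0.34 for the control (SD, n = 2 each). No test is given for it, since the Gucy1b1 values were known when the genes were chosen. These values describe an unequal change of the 2 probe sets. They give no ratio of the subunits, since signals of different probe sets are not on a common scale.

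The other soluble cyclase gene on the array, Gucy1b2, a second beta subunit, read 17.7 and 31 on the antibody arrays and 25.5 and 29.6 on the control arrays. The groups overlapped, with a log2 change of -0.13 ± 0.24.

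The nitric oxide synthases had 13 probe sets, of which 5 were tested, and none was called. Nos3, the synthase known from endothelium, had 6 probe sets, and 3 were tested. AF110508_at had 65.7 and 47.4 on the antibody arrays and 27.8 and 45.5 on the control arrays. The antibody arrays were both higher, though 1 of them lay within a factor of 1.04 of a control array, and the log2 change of 0.47 ± 0.23 had a 95% interval from -0.05 to 1.00. AJ011115_g_at had 67.5 and 77 on the antibody arrays and 66.9 and 65.8 on the control arrays, a log2 change of 0.10 ± 0.18. U02534_at had 41.5 and 50.8 on the antibody arrays and 48.6 and 46.2 on the control arrays, a log2 change of -0.03 ± 0.19. The 3 tested Nos3 probe sets therefore did not share a direction. Of the Nos3 probe sets too dim for a test, AJ011116_at had 14.6 and 12.7 on the antibody arrays and 4.4 and 10.2 on the control arrays, and AJ011115_at had 5.1 and 19.7 on the antibody arrays and 8.8 and 13 on the control arrays. AF085195_at lay between 1.6 and 2.4 on all arrays. AJ011115_at and AJ011115_g_at were named for the same sequence, so they are not independent.

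Markers of endothelial cells were compared beside Nos3. Of 10 listed markers, 6 were measured and 3 tested, none was called and none was listed at 0. On their brightest probe sets the mean log2 value was higher in the antibody group for all 6. Kdr, Vwf and Icam2 were too dim for a test, and their groups overlapped. Among all 5252 tested probe sets, 2902 had a change above 0. The summed intensity of the 6 markers was 236.6 and 289 on the antibody arrays and 172.4 and 165.9 on the control arrays. Of the 6, Edn1 differed most in mean intensity, so it weighs most in the difference of the sums. Edn1, the vasoconstrictor peptide endothelin 1, had 88.1 and 89.8 on the antibody arrays and 38.3 and 34 on the control arrays (limma, adjusted p = 0.0653). Pecam1, an adhesion molecule of endothelium, had 41.9 and 33.1 on the antibody arrays and 36.4 and 31.7 on the control arrays, so its groups overlapped. Egfl7, a protein of endothelium outside the marker list, went the other way on rc_AA893770_g_at. It had 12 and 14.2 on the antibody arrays and 58.4 and 42.3 on the control arrays. The part of endothelial cells in the Nos3 or Gucy1b1 values was not tested.

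Nos2, the inducible synthase, gave the least steady signal. Its probe set U16359cds_at had 15.4 and 57.1 on the antibody arrays and 106.7 and 27.1 on the control arrays. The arrays of each treatment differed by factors of 3.71 and 3.94, more than the treatments did, and the 95% interval of the log2 change of -0.60 ± 0.49 ran from -1.69 to 0.49. Without antibody replicate 2 the log2 change of this probe set was -1.21, and without control IgG replicate 2 it was -1.36. Without control IgG replicate 1 the change was 0.15 and without antibody replicate 1 it was 0.0075, so leaving out either of these arrays turned its direction. S71597_s_at had 43.6 and 69 on the antibody arrays and 50.8 and 37.2 on the control arrays, which overlap, with a log2 change of 0.26 ± 0.23. The Nos2 probe sets left out of the tests were AF006619_s_at, with 9.9 and 13.4 on the antibody arrays and 30.8 and 15.1 on the control arrays, and U03699complete_seq_at, with 13.4 and 21.6 on the antibody arrays and 12.2 and 12.4 on the control arrays. The antibody values were lower on AF006619_s_at and higher on U03699complete_seq_at, and both probe sets are dim.

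Nos1, the synthase known from neurons, was too dim for a test on all 3 of its probe sets. AF008912_at was the brightest of them, with 15.4 and 29 on the antibody arrays and 20.3 and 16.4 on the control arrays. U67309_at had 8.2 and 12.8 on the antibody arrays and 7.6 and 5.7 on the control arrays. X59949cds_s_at stayed between 3.3 and 5.9 on all arrays. Whether such signals were above background cannot be told, since no detection calls were used here.

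The natriuretic peptide receptors had 6 probe sets, 4 of them tested and none called. Npr1, the receptor of atrial natriuretic peptide, was measured by 3 probe sets that did not point the same way. J05677mRNA_s_at had 76.9 and 83.4 on the antibody arrays and 70.8 and 72.4 on the control arrays, a log2 change of 0.13 ± 0.17. S80456_s_at had 68 and 75 on the antibody arrays and 66.1 and 52.7 on the control arrays, a log2 change of 0.22 ± 0.19. S82229_s_at had 48.7 and 40.3 on the antibody arrays and 63.9 and 51 on the control arrays, a log2 change of -0.28 ± 0.20. On each of the 3 the groups did not overlap, which held for 37.4% of all tested probe sets. Antibody values were higher on J05677mRNA_s_at and S80456_s_at and lower on S82229_s_at, and each 95% interval held 0.

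Npr2, the receptor of C-type natriuretic peptide, read 17.3 and 31 on the antibody arrays and 28.9 and 25.2 on the control arrays. The antibody arrays enclosed the control arrays, and the log2 change was -0.12 ± 0.24, on a probe set close to the brightness needed for a test. Npr3, the clearance receptor that removes the peptides, was dim on both probe sets, from 2.3 to 2.7 on the antibody arrays and from 0.9 to 10.6 on the control arrays. No difference could be read from values of this size.

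Prkg2, a cGMP-dependent protein kinase, read 15.9 and 13.6 on the antibody arrays and 13.5 and 11.7 on the control arrays, and was not tested. Pde5a, the cGMP-specific phosphodiesterase that sildenafil inhibits, had 2 probe sets that were not tested. D89093_at had 8 and 13.7 on the antibody arrays and 16.5 and 18.8 on the control arrays, and U76032_s_at had 4 and 8.2 on the antibody arrays and 5.1 and 5.3 on the control arrays. The groups were apart on the brighter of them and overlapped on the other.

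**Figure D3:**
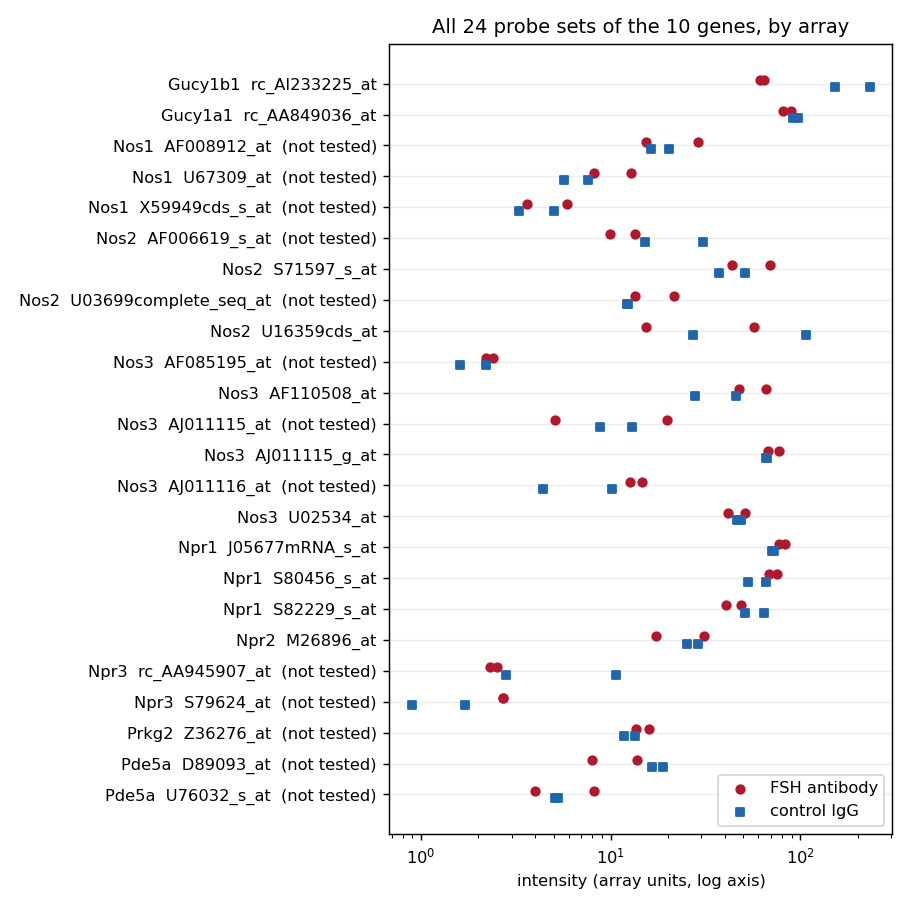
Intensity of all 24 probe sets of the 10 genes on each array (log axis, array units), with antibody arrays as circles drawn above control arrays as squares. The Gucy1b1 symbols of the treatments are far apart, most other probe sets have symbols that overlap or nearly touch, and the 13 probe sets that were not tested lie at 30.8 or lower.

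Besides Gucy1b1, 10 probe sets of these genes were tested. Their log2 changes ran from -0.60 to 0.47 with a median of 0.03, against a median of 0.03 over all 5252 tested probe sets. All 10 of the 95% intervals held 0, and the widest was that of Nos2 U16359cds_at. The intervals do not show that these genes stayed level, since with 2 arrays a treatment they reach as low as -1.69 and as high as 1.00. With Gucy1b1 included, 4 of the 11 tested probe sets had antibody values above both control values and 3 had them below, beside 21.9% and 15.5% of all tested probe sets (37.4% with both directions together).

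**Figure D4:**
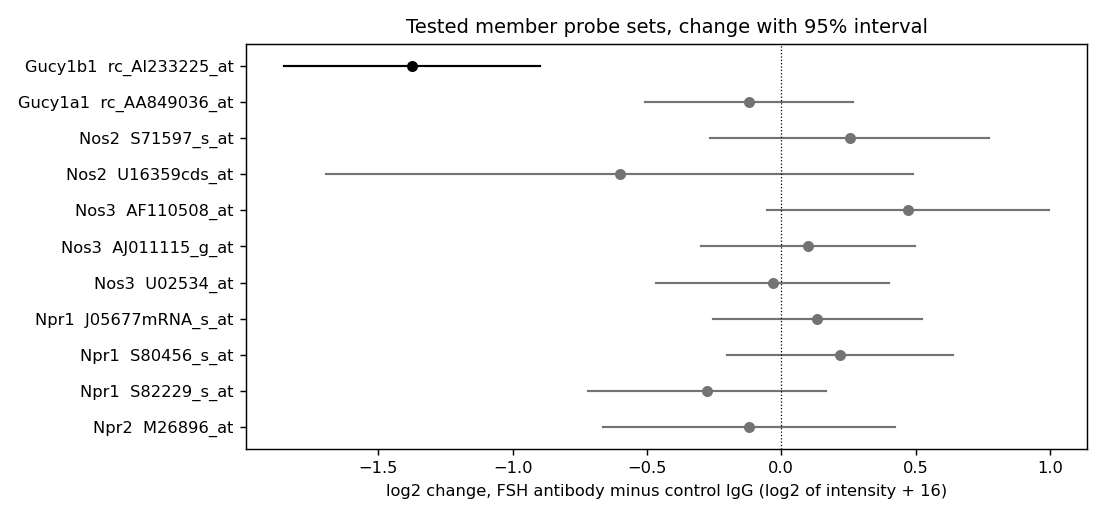
Log2 change (points, antibody minus control on the log2 of intensity plus 16) with 95% intervals (lines) for the 11 tested probe sets. Gucy1b1 alone, drawn in black, has an interval that leaves out 0, and the Nos2 probe set U16359cds_at has the widest interval, from -1.69 to 0.49.

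Among tested probe sets with a single symbol, those whose pattern over the 4 arrays came closest to that of Gucy1b1 were found by the Euclidean distance between log2 values centred on each probe set's mean. They belonged to Egfl7, a secreted protein of endothelium (distance 0.25), Galnt6, a glycosyltransferase (0.42), Ptprs, a receptor phosphatase (0.43), Gda, guanine deaminase (0.45), and Ina, the neuronal filament protein internexin (0.45). Egfl7 had 12 and 14.2 on the antibody arrays and 58.4 and 42.3 on the control arrays. Since the choice asks for a pattern like that of Gucy1b1, the lower antibody values of these probe sets follow from it.

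The wider pathway was taken as 66 other genes in 7 roles, of which 45 were found on 74 probe sets and 27 were tested on 39. After Benjamini-Hochberg adjustment limma called 0 of the 39 in either direction, beside 0.267% of all tested probe sets. At an unadjusted p under 0.05 there were 3, or 7.69%, beside 8.11% of all tested. Their median log2 change was 0.10, beside 0.03 over all tested probe sets, and 26 changes were above 0 and 13 below.

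All but 1 of those 3 belonged to Slc7a1, the transporter that carries arginine into cells. Its probe set U70476_at had 85 and 83.3 on the antibody arrays and 179.9 and 139.5 on the control arrays, a log2 change of -0.80 ± 0.18 (limma, adjusted p = 0.183). The probe set rc_AA957917_s_at had 84.5 and 85.4 on the antibody arrays and 165.7 and 134.5 on the control arrays, a log2 change of -0.71 ± 0.18 (limma, adjusted p = 0.235). Both antibody arrays lay below both control arrays on each, with the control groups at least 1.57 times higher where they came closest. The remaining probe set, L10152_s_at, was dimmer and overlapped, with 23.6 and 40.4 on the antibody arrays and 29.6 and 21.4 on the control arrays. Without antibody replicate 1, the log2 change of U70476_at was -0.81.

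The other was Nppc, which encodes C-type natriuretic peptide, the ligand of Npr2. Its probe set D90219_at had 35.2 and 47.7 on the antibody arrays and 25 and 21.5 on the control arrays, and both antibody values were the higher ones. The log2 change was 0.54 ± 0.22 (limma, adjusted p = 0.58). Its other probe set, E04009cds_s_at, was too dim for a test and overlapped, with 21.2 and 19.6 on the antibody arrays and 16.7 and 21 on the control arrays. Mme, the protease neprilysin that degrades natriuretic peptides, gave a log2 change of -0.30 ± 0.24.

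Membrane guanylate cyclases had 2 tested probe sets. Gucy2d read 27 and 32.1 on the antibody arrays and 20.2 and 19.4 on the control arrays, with a log2 change of 0.35 ± 0.22. Gucy2e read 46.9 and 61.6 on the antibody arrays and 71.2 and 57.4 on the control arrays, which overlap, with a log2 change of -0.20 ± 0.20.

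The 4 tested phosphodiesterase probe sets all had log2 changes above 0, as had 2902 of all 5252 tested probe sets, and none was called. Pde1b gave 0.0095 ± 0.22 with overlapping groups. Pde3b, whose hydrolysis of cAMP is slowed by cGMP, read 35.2 and 37.1 on the antibody arrays and 29.9 and 21.7 on the control arrays, a log2 change of 0.33 ± 0.21. Pde3a gave 0.25 ± 0.24 with overlapping groups. Pde6d, which counts among the 4, encodes a subunit that does not itself hydrolyse cGMP and gave 0.09 ± 0.17. Among the cGMP effectors, 8 probe sets were tested. The channel subunits Cnga1 (0.35 ± 0.21) and Cnga3 (0.21 ± 0.21) had the smallest unadjusted p of that role.

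Among partners of the synthases, the chaperone Hsp90ab1 gave 0.30 ± 0.17 on rc_AI007820_s_at and 0.0002, 0.14 and 0.15 on its other probe sets, and the caveolin Cav3 gave 0.18 ± 0.18. Of the enzymes that make and recycle tetrahydrobiopterin, the cofactor of the synthases, Gch1, Pts, Spr and Qdpr were tested and had log2 changes from -0.29 to 0.26, with none called.

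**Figure D5:**
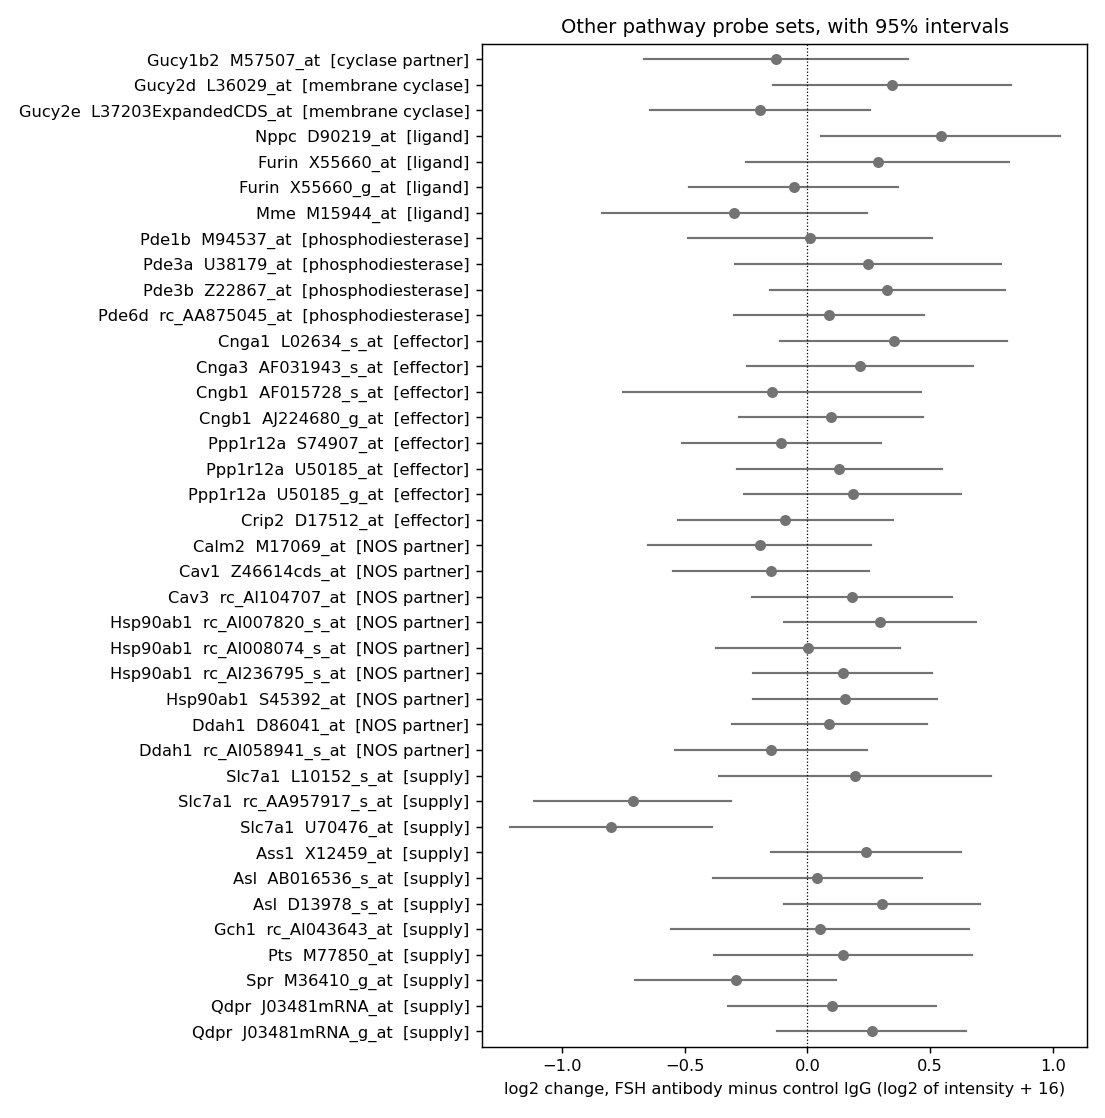
Log2 change (points, antibody minus control) with 95% intervals (lines) for the 39 tested probe sets of the other pathway genes, labelled by role. Intervals that leave out 0 are those of Slc7a1 U70476_at and rc_AA957917_s_at on the lower side and of Nppc D90219_at on the higher side, and no probe set was called after adjustment.

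Markers of further cell types of the testis and of blood were compared beside Gucy1b1. For peritubular myoid and smooth muscle cells, 7 of 8 markers were measured, with a summed intensity of 3752 and 2748 on the antibody arrays and 3274 and 3447 on the control arrays, and 0 of the 7 were called on their brightest probe set. For Leydig cells, 4 of 6 were measured, with sums of 1634 and 1837 on the antibody arrays and 1988 and 1892 on the control arrays, and Star, which moves cholesterol into mitochondria, was the 1 called. The Leydig sum is mostly the bright Cyp17a1, a steroid hydroxylase, with 1361 and 1653.3 on the antibody arrays and 1730.4 and 1651.1 on the control arrays. Star fell by 1.49 ± 0.23 on the log2 scale on AB006007_s_at, with 25.5 and 12.8 on the antibody arrays and 75.9 and 86.2 on the control arrays. By mean log2 value of the brightest probe sets, 3 Leydig genes were lower and 1 was higher. Of the 3 lower ones, Star alone had groups that did not overlap on that probe set. The higher gene, Cyp11a1, had 185.1 and 121.3 on the antibody arrays and 104.6 and 95.1 on the control arrays. Lhcgr was higher on M61211cds_s_at (log2 change 0.46 ± 0.18) and M26199_s_at (0.24 ± 0.21), where the groups were apart. It was lower on its brightest probe set, Z33403_at (-0.22 ± 0.20), where they overlapped. Of 5 erythroid markers 2 were measured, with sums of 1224 and 1408 on the antibody arrays and 1412 and 2478 on the control arrays. Among them Alas2, the erythroid enzyme of heme synthesis, fell by 1.38 on the log2 scale and was called by limma, with 72.8 and 51.9 on the antibody arrays and 158.4 and 218 on the control arrays, while the globin Hbb had 1150.7 and 1356.6 on the antibody arrays and 1253.2 and 2260 on the control arrays and was not called. None of the 3 lists held a measured marker listed at 0. The part of these cells in the Gucy1b1 value was not tested.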

How the data were processed

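Each probe set has 1 deposited intensity per array, on a linear scale. With 2% of probe sets trimmed at either end, every array had a mean of 125, so the deposited values had been scaled to a common level. Neither the software nor the background correction is given in the sources used here. Symbols came from the platform annotation and were updated through Entrez identifiers with RefSeq (GRCr8): 7018 of 8799 probe sets had 1 symbol, 308 several and 1473 none.

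The analysis used log2 of the intensity plus 16. Probe sets at or above the 40th percentile of mean log2 value over all 8799, without the 59 controls (5252 in all), entered a two-sided moderated fit with an intensity trend (lmFit and eBayes of limma 3.58.1 in R 4.3.3), and p-values were adjusted over all of them by Benjamini-Hochberg, with a threshold of 0.05. No further normalization was applied. The functions were tested on simulated data. The genes and lists were chosen with earlier results of these data known. Named were every probe set of the 10 genes, the 2 smallest unadjusted p in each pathway role, the 5 nearest to the Gucy1b1 pattern among tested probe sets with 1 symbol, and markers that moved with a result. The alternatives were other scalings, constants and filters, no trend, a replicate block and leaving out each array. The number of arrays limits the precision.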

Additional observations from a re-analysis of the deposited data

How the results depend on the processing

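Against 14 called probe sets, 0 were called with quantile normalization, 4 with median centring and 0 with no filter, while leaving out 1 array gave 0 to 153. Where 0 were called, 421 (quantile normalization) and 702 (no filter) had an unadjusted p under 0.05 by limma. Of the probe sets of the 10 genes, 1 was called as reported, 0 with quantile normalization, 0 with median centring, 0 with no filter, 0 with no intensity trend, and 0 to 2 when 1 array was left out, while Gucy1b1 had an unadjusted p under 0.05 by limma in all of these. Of the other pathway probe sets, 0 to 1 were called when 1 array was left out and 0 under the remaining alternatives. Of 11 tested probe sets of the 10 genes, 7 kept their direction in each alternative that tested them (11 or 12 alternatives, since 5 of the 11 passed the 60th percentile filter). Those that turned did so when 1 array was left out, with log2 changes from -0.0003 to 0.51 for Nos2 S71597_s_at, -1.36 to 0.15 for Nos2 U16359cds_at, -0.14 to 0.076 for Nos3 U02534_at and -0.37 to 0.13 for Npr2. With 3 arrays the fit has 1 residual degree of freedom, and the lone array is assumed to vary like the other group. The cause of the other changes was not tested. How far any signal lies over background is not known, as no detection calls were used.

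The replicate numbers are not said to pair animals, and the correlation of same-numbered arrays' deviations was 0.0039. With the replicate number as a block, 39 probe sets were called in place of 14, 1 of them among the 10 genes (Gucy1b1, log2 change -1.37) and 0 among the other pathway genes.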

Other observations

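Probe sets paired with both Nos2 and its pseudogene Nos2-ps1 were 3 in number and were left out above because they name no single gene. U48829_s_at had 27.8 and 34.9 on the antibody arrays and 16.7 and 18.1 on the control arrays, with both antibody values higher, and its log2 change of 0.50 ± 0.22 was not called (limma, adjusted p = 0.61). D83661_s_at had 14.9 and 29.2 on the antibody arrays and 20.1 and 20.5 on the control arrays, and D44591_s_at had 7.4 and 13 on the antibody arrays and 10.5 and 8.3 on the control arrays, with overlapping groups on both. Those 2 were too dim to be tested.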
